A study of Mus musculus with 10 samples.

Results

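Sall1 and Sall3 encode zinc finger proteins of the spalt family, and their loci are described here by the H3K27ac regions listed around them in brain macrophages of mouse. A region was counted at Sall1 or Sall3 if that gene was the protein-coding gene whose nearest end lay closest to the midpoint of the region, at any distance. By this rule 14 of 1320 listed regions belonged to the 2 genes, 12 of them to Sall1 and 2 to Sall3. All 14 were in the list named for YSM and 0 in the list named for MDM. Over the whole series 67.6% of listed regions were in the YSM list (892 of 1320, exact Clopper-Pearson 95% interval 65 to 70.1, counting error alone), and neighbouring regions are not independent of each other.

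The libraries were made by CUT&Tag, which uses an antibody to bring a transposase to a histone mark and so tags the DNA around it. H3K27ac marks active promoters and enhancers. The cells were sorted brain parenchymal macrophages from Ms4a3Cre:R26-tdTomato mice, a genotype that all libraries share, and all carry the treatment name DR-3x, which is not explained. Strain, age and the number of animals are not given, and separate animals behind the libraries are not stated. As background, Cre driven by Ms4a3 leaves the tdTomato reporter in descendants of granulocyte-monocyte progenitors. The samples fall into 4 YSM and 4 MDM libraries for H3K27ac. The title of the series spells out MDM as macrophages derived from monocytes, and YSM is not spelled out. A further YSM and a further MDM library, named for H3K27me3, were not analysed here. The files hold the regions that the authors' comparison separated and no level per library, so depth is unknown and no error between animals can be given. A region in a list was read as having more H3K27ac in the group the list is named for, since the direction of the test is not stated.

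SALL proteins bind DNA through pairs of C2H2 zinc fingers and recruit the NuRD complex, which combines chromatin remodelling with histone deacetylation. In the brain's immune cells Sall1 is largely restricted to microglia. Microglia that lose it turn towards an inflammatory state, and it acts there with SMAD proteins downstream of TGF-beta. Sall3 is a paralog that is also expressed in microglia. Macrophages of bone marrow origin that settle in the brain are known to express little Sall1.

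Sall1 lies on chromosome 8 between 89027242 and 89044162 (mm10), is 16.9 kb long and is read on the minus strand. Its upstream side is therefore the side of higher coordinates. The 12 YSM regions spanned 364 kb, from inside the gene to far upstream of it. By position, 2 regions were near the promoter (midpoint within 1 kb of either gene end), 1 was intragenic and 9 were distal. All 9 distal ones lay upstream. None lay downstream, in the 275 kb between Sall1 and Cyld. Regions joined at gaps of at most 10 kb formed 2 runs, 1 over the start of the gene and 1 far upstream, with 4 single regions between them. Midpoints of neighbouring regions were 0.271 to 111 kb apart, with a median of 8.95 kb. Overlapping regions merged into 9 blocks that covered 19.2 kb of the span.

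**Figure D1:**
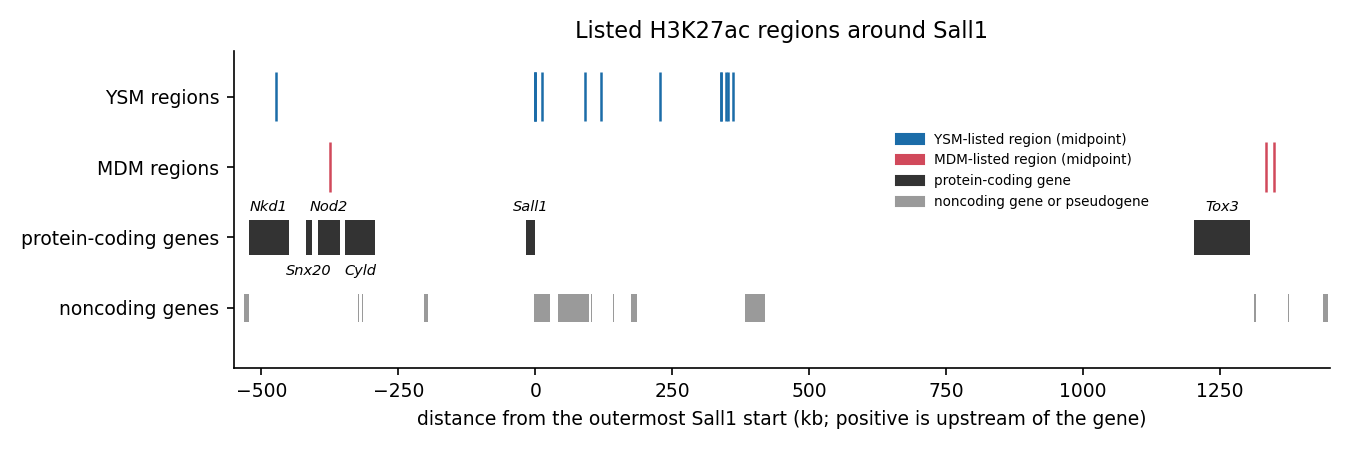
Listed H3K27ac regions around Sall1, by distance in kb from the outermost annotated start of the gene (positive is upstream). Each coloured line is the midpoint of a listed region, blue for YSM and red for MDM, and boxes are genes. The 12 YSM regions at Sall1 run from the gene to 360 kb upstream, and the nearest MDM regions lie inside Nod2 and beyond Tox3.

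The run over the start held 3 regions that overlap each other. The region chr8:89042804-89044804 had its midpoint 0.358 kb inside the gene, and chr8:89042478-89044478 had it 0.684 kb inside. The third, chr8:89041911-89043911, lay 1.25 kb inside and so just beyond the limit for promoter-near. Successive members shared 1434 and 1675 bp, and together they covered 2.89 kb. RefSeq gives 3 start windows for Sall1, with starts at 89044162, 89043512 and 89042862. The outermost start lay under 2 of the 3 regions and each inner start under all 3. No MDM region covered any of them. Among 17492 protein-coding genes with a start window in the RefSeq promoter table, 48 had a start under a YSM region and 32 under an MDM region. Of the 687 genes with 3 or more start windows, 2 had at least 3 starts under YSM regions, Sall1 and Elavl4. Elavl4 encodes an RNA-binding protein known mainly from neurons. The limit of 3 is also the number of starts at Sall1. By YSM regions over a single start, Col25a1, Elavl4 and Prickle1 had more, with 4 each against 3 at Sall1, and 14 genes had 2.

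**Figure D2:**
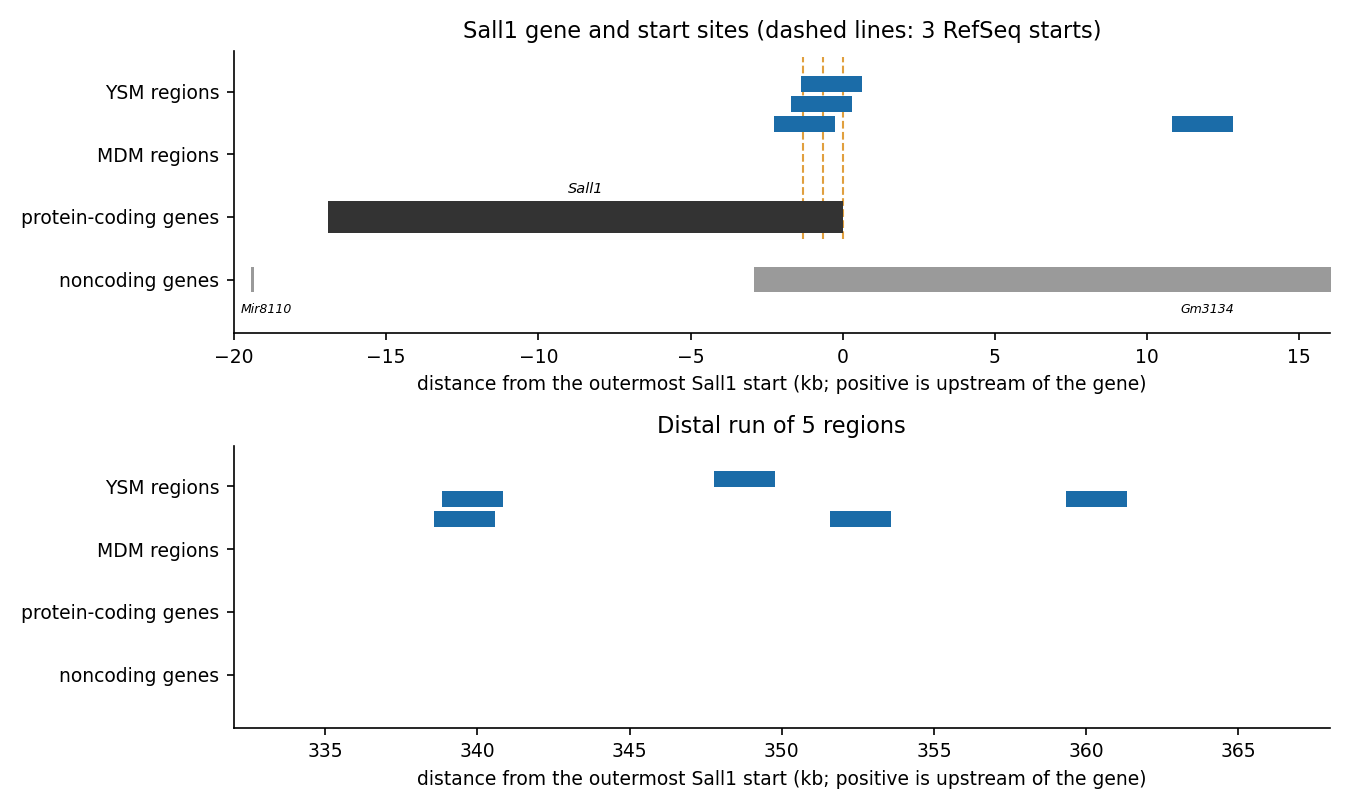
Close view of the Sall1 gene with its 3 RefSeq starts as dashed lines (upper panel) and of the distal run of 5 regions (lower panel), by distance in kb from the outermost start. Blue bars are YSM regions drawn at their true length of 2001 bp, and their height within the row only separates neighbours. The 3 regions at the gene overlap over the starts, and the distal run has 1 overlapping pair and 3 separate regions.

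The sequences before these starts are shown because the listed run at the gene covers them whole. They come from RefSeq on GRCm38.p6, the assembly of mm10, are written 5′ to 3′ on the minus strand and end at the base before each start. Capitals mark CpG dinucleotides, the feature that defines CpG island promoters. The first lies at chr8:89044163-89044412, the second at chr8:89043513-89043612 and the third at chr8:89042863-89042962.
Sall1 start 1: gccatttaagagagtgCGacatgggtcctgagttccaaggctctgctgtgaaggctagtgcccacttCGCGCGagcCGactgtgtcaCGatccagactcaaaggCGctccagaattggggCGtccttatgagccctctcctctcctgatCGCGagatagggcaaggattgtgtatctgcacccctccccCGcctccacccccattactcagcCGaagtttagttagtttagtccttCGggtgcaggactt
Sall1 start 2: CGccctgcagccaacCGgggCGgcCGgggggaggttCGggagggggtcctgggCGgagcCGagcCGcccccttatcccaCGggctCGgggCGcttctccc
Sall1 start 3: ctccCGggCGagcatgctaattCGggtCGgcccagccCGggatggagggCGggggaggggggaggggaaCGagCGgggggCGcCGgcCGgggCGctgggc

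Over the 250 bases before each start, the outermost start had 56.4% G and C and 13 CpG. The second start had 74.4% and 25 CpG, and the third 78.4% and 30 CpG. The median over 21263 start windows of protein-coding genes was 55.6% and 10 CpG. The outermost start therefore lay near the middle of all promoters, and 94.6% and 97.8% of promoters had at most the G and C share of the inner ones. The GC box GGGCGG, bound by SP and KLF factors, occurred on either strand 0 times before the outermost start, 4 times before the second and 1 time before the third, and 42.6% of all these windows hold it. GGAAGT, a core of sites for PU.1, the ETS factor of myeloid cells, occurred 1 time, before the third start, and in 20.4% of windows. CAGAC, a SMAD element, and CCAAT occurred 1 time each before the outermost start, and in 40.9% and 35.4% of windows. ATATT, an element rich in A and T that SALL proteins bind, and TATAAA and CACGTG had no match in the 3 windows and were in 20.6%, 11.6% and 6.63% of all windows. Matches were sought on both strands and are letters in a window, not measured binding. The GGAAGT match lay 180 bases before the third start, and 1 GC box lay 153 bases before the second. Both fall outside the bases printed above.

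The 4 single regions stepped away from the gene. The first, chr8:89054968-89056968, lay 11.8 kb upstream, within Gm3134, a long noncoding RNA gene read from the opposite strand that begins inside Sall1. The second, chr8:89133562-89135562, lay 90.4 kb upstream within another noncoding RNA gene, Gm35305, and covered neither of its annotated starts. The third, chr8:89162279-89164279, lay 119 kb upstream, and the fourth, chr8:89271583-89273583, lay 228 kb upstream. These last ones overlapped no annotated gene. In all, 5 of the 12 regions overlapped a noncoding RNA gene, and 0 of the annotated noncoding starts around Sall1 lay under a region.

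The distal run held 5 regions between 89382723 and 89405487 on chromosome 8, a span of 22.8 kb of which 36.3% was covered. Midpoints were 340, 340, 349, 353 and 360 kb upstream of the gene. The regions chr8:89382723-89384723 and chr8:89382994-89384994 overlapped by 1730 bp. The others, chr8:89391946-89393946, chr8:89395742-89397742 and chr8:89403487-89405487, were set apart by gaps of 6.95, 1.79 and 5.74 kb. No annotated gene lies in the run. The nearest gene of any type is the noncoding Gm35593, whose end facing the run lay 22.7 kb from the midpoint of the last region. No listed region of either group lay in the 109 kb between the run and the fourth single region. A cluster of enhancers far upstream of Sall1 has been described in microglia, as background. Whether this run coincides with it was not tested, since only the deposited regions were used.

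Sall3 lies on chromosome 18 between 80966989 and 80987021 and is 20 kb long. Its 2 YSM regions were both distal and lay beyond the end of higher coordinates. The region chr18:81013225-81015225 had its midpoint 27.2 kb from that end, and chr18:81020537-81022537 had it 34.5 kb away. Their midpoints were 7.31 kb apart with a gap of 5.31 kb between edges, so they formed 1 run of 9.31 kb at the 10 kb limit. Sall3 had no promoter-near and no intragenic region in either list, unlike Sall1. The regions overlapped no annotated gene of any type, and the pseudogene Gm25718 was the nearest, 12.5 and 5.24 kb away. Both fell in the interval of 1405 kb between Sall3 and Galr1, a galanin receptor gene, and no region fell in the 32.9 kb between Sall3 and Atp9b, a phospholipid transporter gene. The nearest MDM region on the chromosome was 3798 kb from the gene (chr18:84784398-84786398). The strand of Sall3 is not in the tables used, so these regions are not called upstream or downstream here.

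**Figure D3:**
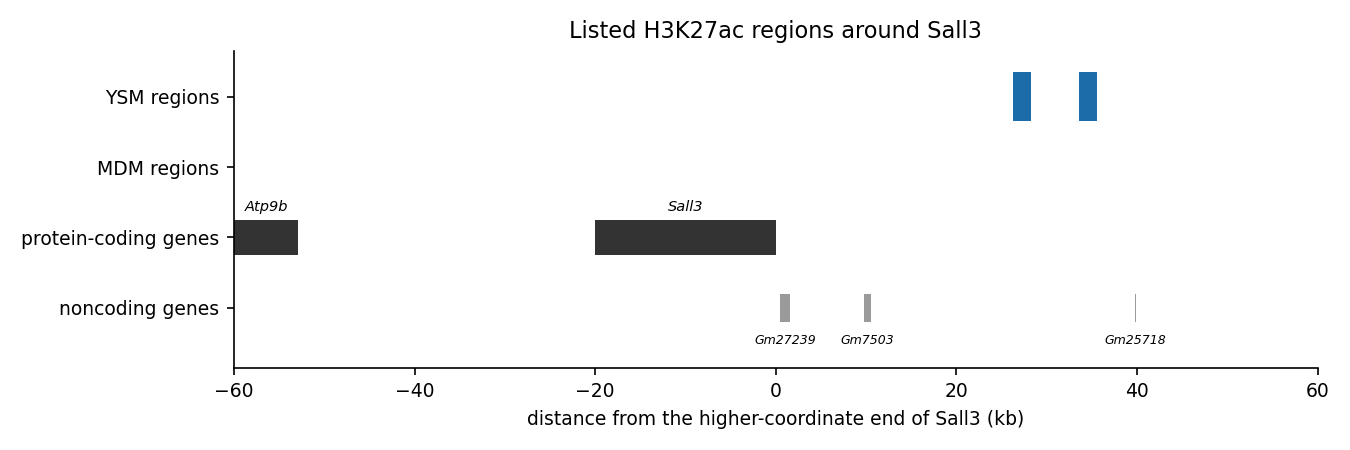
Listed H3K27ac regions around Sall3, by distance in kb from the end of the gene with the higher coordinate. Blue bars are YSM regions at their true length and boxes are genes; the MDM row is empty. Both YSM regions lie outside the gene, 27.2 and 34.5 kb from its end.

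The MDM list came no nearer to Sall1 than 358 kb. That region, chr8:88667769-88669769, lay within Nod2, a sensor of bacterial cell wall fragments, with Cyld, a deubiquitinase gene, between it and Sall1. On the upstream side the next listed regions after the distal run belonged to the MDM list. They lay 29.2 and 42.5 kb from Tox3, which encodes an HMG-box protein (chr8:90377231-90379231 and chr8:90390533-90392533), and 1334 and 1347 kb from the outermost Sall1 start. The next YSM region on the downstream side was intragenic in Nkd1, an inhibitor of Wnt signalling (chr8:88570774-88572774), at -472 kb from that start. Between Nod2 and Tox3, the regions listed were those of Sall1, all of the YSM list.

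The remaining spalt genes had no listed region. The YSM region nearest to Sall4, a family member best known from embryonic stem cells, was 214 kb away and nearer to Zfp64. The nearest MDM region was 4583 kb from Sall4. For Sall2, the nearest YSM region was 2416 kb and the nearest MDM region 15556 kb away. Of the 4 spalt genes, 2 thus had YSM regions and 0 had MDM regions. Those 2 are the members, chosen with earlier results known, so this count says nothing about the family as a whole. Over all 21887 protein-coding genes, 2.16% were nearest to a YSM region (473 genes) and 1.18% to an MDM region (258 genes). A gene can be nearest because its neighbours are far off, and both members border a gene-poor interval of over 1 Mb.

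Among the 473 genes with YSM regions, where the median was 1 region, Sall1 ranked 2 by number of YSM regions, after Klf12 with 14. It also ranked 2 by number of regions over 100 kb from a gene end, with 7, tied with 1 other gene, Camk1g, after Fam155a with 9. By groups, meaning runs and single regions together, it had 6 and ranked 3, tied with Klf12. By the distance of its farthest region, 360 kb, it ranked 25. Sall3, with 2 regions, shared rank 95 with 94 other genes. Promoter-near takes in either end of a gene, so a region of that class need not be at a start. Of 66 genes with a promoter-near YSM region, 8 also had a YSM region over 100 kb from a gene end (12.1%). Such a region can lie outside the gene or deep inside a long one. Sall1 had 7 such far regions, all upstream of the gene. The receptor phosphatase gene Ptprm had 4, Csmd3 had 3, and Klf12, Magi1 and the planar polarity gene Prickle1 had 2 each. The collagen gene Col25a1 and the Wnt receptor gene Fzd8 had 1 each. At Ptprm, Magi1 and Col25a1 no region was distal, so their far regions lay inside the gene. Klf12 had 1 distal region in all. Over the whole YSM list, 22.9% of regions lay over 100 kb from the nearest gene end, 10.1% were promoter-near, 52.7% intragenic and 37.2% distal. These ranks describe the lists and were not tested.

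**Figure D4:**
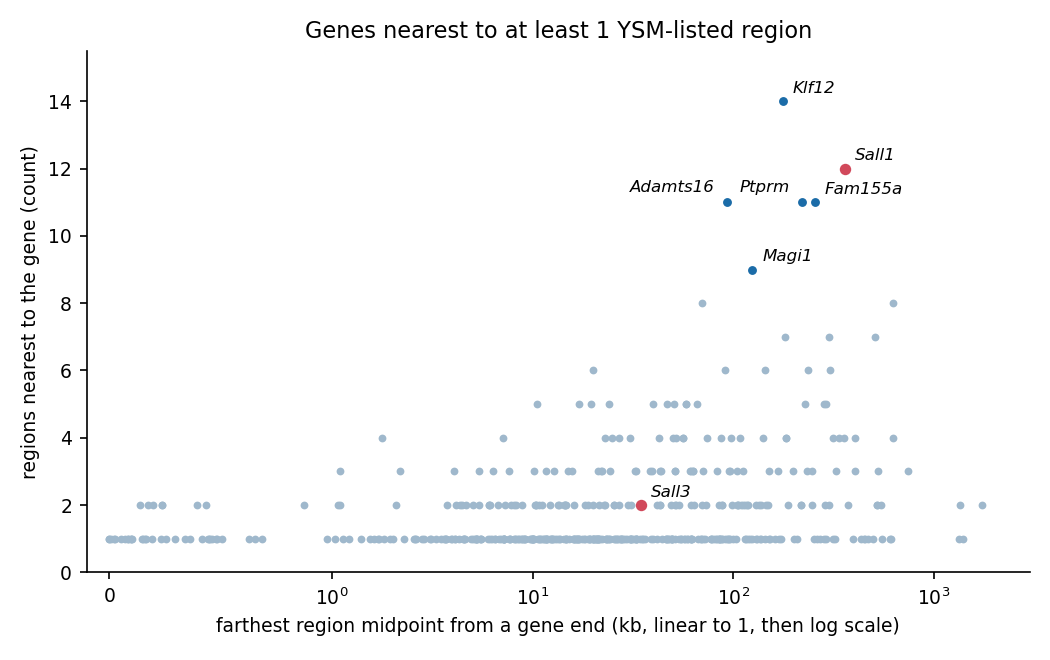
Each point is 1 of the 473 genes with a YSM region. The horizontal axis is the distance of its farthest YSM region from a gene end in kb, linear to 1 kb and logarithmic above. The vertical axis is its number of YSM regions. Sall1, in red, sits at 12 regions and 360 kb, and Sall3, in red, at 2 regions and 34.5 kb; blue labels mark the 5 genes most like Sall1.

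Likeness was measured by number of regions and then by span, over 463 genes whose regions were all of the YSM list. The 5 genes most like Sall1 were Fam155a, Ptprm, Adamts16, Klf12 and Magi1, and their layouts differed. Fam155a, a partner of the sodium leak channel, had 11 regions over 235 kb, all distal. Adamts16, a secreted metalloprotease gene, had 9 of 11 distal, the farthest at 93.5 kb. At Ptprm 10 of 11 regions were intragenic, at the Krüppel-like factor gene Klf12 11 of 14, and at Magi1, a junction scaffold gene, 7 of 9. Sall1 had 1 of 12. The genes most like Sall3 each had 2 regions in 1 run: the dipeptidase gene Pepd, the COP9 signalosome gene Cops8, Lpcat1, the alpha-fetoprotein gene Afp and the kinase gene Ripk4. Of these 5, only Cops8 had both regions distal, as Sall3 had.

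Genes that act with SALL proteins, or that mark microglia, are given here as counts, to be read against the 2.16% of all protein-coding genes that were nearest to a YSM region and the 1.18% nearest to an MDM region. Of 13 NuRD genes, 1 had a YSM region, the histone deacetylase gene Hdac2 (57.2 kb away), and 1 an MDM region, the methyl-CpG binding gene Mbd2 (60.5 kb). Of 24 TGF-beta and SMAD genes, 1 had a YSM region, Smad1, a SMAD of the BMP branch (intragenic, chr8:79388440-79390440). MDM regions belonged to 2 of them, Pmepa1, a feedback inhibitor of the pathway (73 kb), and Ltbp1, which encodes a protein that tethers latent TGF-beta (intragenic). Neither Smad3 nor the receptors Tgfbr1 and Tgfbr2 had a region. Of 25 microglial transcription factors, 3 had YSM regions (12%), the 2 spalt genes themselves and Runx1, needed for definitive haematopoiesis (intragenic, 31.3 kb from an end). Without the spalt genes this was 1 of 23 (4.35%), a single gene, beside 2.16% over all genes. The forkhead gene Foxp1 had the single MDM region of that list (4%). Without the spalt genes the MDM share was likewise 1 of 23 (4.35%), beside 1.18% over all genes. Spi1, Irf8, Mef2a and Mef2c had none. A gene without a listed region may carry the mark at any level in both groups.

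Of 25 microglial surface and signature genes, 2 had YSM regions (8%), Jam2, a junctional adhesion molecule gene with 5 regions, and Adgrg1, an adhesion receptor gene with 2, and 0 had MDM regions, beside 2.16% and 1.18% over all genes. P2ry12, Tmem119, Siglech, Gpr34 and Fcrls, which mark microglia, were in neither list. Of 23 genes of monocyte-derived brain macrophages, 0 had YSM regions and 4 had MDM regions (17.4%): Cd163, Mgst1, Anxa1 and Cd93. The share of all genes with an MDM region was 1.18%. Markers of other brain cells were also in the YSM list, which held 2.16% of all genes. They were 2 of 5 neuronal genes (Syt1, Snap25), 2 of 4 oligodendrocyte genes (Mbp, Mog) and 1 of 4 astrocyte genes (Slc1a3). The nearest regions were distal at Syt1 (286 kb), Snap25 (33.4 kb) and Mog (5.47 kb), and intragenic at Mbp and Slc1a3. None of these listed markers had a promoter-near region. Elavl4, named above as known mainly from neurons and outside these marker lists, had 1 promoter-near YSM region. Endothelial genes had 0 of 3 and monocyte genes 0 of 4, and none of these neuronal, glial, endothelial or monocyte markers had an MDM region. Of 4 markers of border-associated macrophages, 1 had an MDM region, the scavenger receptor gene Cd163 named above, and 0 had YSM regions. The part of other cell types in the regions at Sall1 and Sall3 was not tested.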

How the data were processed

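H3K27ac CUT&Tag of 4 YSM and 4 MDM libraries was used as 2 lists of regions that the authors deposited after a comparison between the groups. Trimmomatic 0.39, Bowtie2 2.2.5, Picard, HOMER and build mm10 are named, without roles, per the submitters' processing notes. The deposited score has no stated meaning and equals 1 for all 14 member regions, so it was not compared. The authors deposited positions of another kind, a start and an end 2001 bp apart for every region, and starts are printed here counted from 1.

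Genes came from a RefSeq table of GRCm38.p6 with 21887 protein-coding genes, and start sites and sequences from a RefSeq promoter table in which Sall1 and Sall2 were matched by symbol. Promoters of Sall3 and Sall4 were not analysed here. Distances run from the midpoint of a region to a gene end. Python 3.11.15, numpy 2.4.6 and scipy 1.17.1 were used, and the assignment was tested on 500 simulated regions, all recovered. No test between groups was made, because the lists hold no value per library. Motifs and named genes followed written rules. Members, gene lists and rules were chosen with earlier results of these data known. Genes named beside a rank, or for lacking a region, were picked with their values in view. A comparison of SALL protein sequences was not run, and sequences under the distal regions and on chromosome 18 were not used here.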

Additional observations from a re-analysis of the deposited data

How the results depend on the processing

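No paired analysis was possible because regions come without a value for each library. Libraries could not be left out either, and depth is unknown. Of 50 values recomputed with other settings, 41 stayed within 1.5 times the reported count and 9 did not. Many of those 41 were counts of 0 that stayed 0. A distance limit or the joining of overlapping regions can only lower a count, so neither could change a 0. The 12 YSM regions at Sall1 became 4 with genes of all types and 5 within 100 kb, and the 2 at Sall3 became 0 with genes of all types, because noncoding genes or the limit take the distal ones. With a promoter window of 0.5 kb Sall1 had 1 promoter-near and 2 intragenic regions, and with 2 or 5 kb it had 0 intragenic. The run at Sall3 was lost (0 runs) when overlap or a gap of at most 5 kb was required. MDM regions at either gene were 0 under each assignment tried. The better-scored part of each list was not run, since all members have the same score, and the nearest start could not be used for Sall3.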

Other observations

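Long intervals between protein-coding genes were compared after the Sall1 values were seen. Of 296 intervals of at least 1 Mb, 37 held a YSM region (12.5%), 15 held an MDM region and 0 held regions of both lists. The interval from Sall1 to Tox3 held 9 YSM regions, as many as the interval from Adamts16 to Irx1, a homeobox gene, and no interval of this length held more YSM regions. The interval from Adam6a to Zfp386 held 21 MDM regions and 0 YSM regions, the most listed regions of any such interval. Genes of other types can lie inside these intervals and were not considered here, so an interval need not be empty of genes. By YSM regions, the intervals with 9 were followed by those from Camk1g to Plxna2 and from Celf4 to Pik3c3, with 7 each.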
